A study of Mus musculus with 8 samples.

Results

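The Hox genes of the 4 mouse clusters were read from every probe that is not a control and whose gene name was Hox, a cluster letter from a to d and a paralogue number from 1 to 13, with nothing after it. This gave 44 of the 55681 probes on the array, for 39 of its 36451 gene names. The Hoxa cluster had 11 genes, the Hoxb cluster 10, and the Hoxc and Hoxd clusters 9 each. The choice used names only and no measured value.

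Hox genes encode homeodomain transcription factors that tell cells where they lie along the axis from head to tail. Within a cluster the genes stand in the order in which they are switched on, so that low paralogue numbers are active earlier and farther forward than high ones. Retinoic acid, a small molecule made from vitamin A, acts through nuclear receptors on several genes of low paralogue number. In the heart these anterior genes mark progenitors in the back part of the second heart field, some of which are added to the outflow tract.

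RNA was measured on 8 one-colour arrays, 1 for each pool of 4 cardiac outflow tracts dissected from mouse embryos at E10.5. The outflow tract is the tube between the embryonic ventricles and the arch arteries. The 4 knockout pools, numbered 1, 2, 3 and 7, came from Raldh2-/- embryos. Raldh2, now named Aldh1a2, is the main enzyme that makes retinoic acid in the early embryo. The 4 wild type pools, numbered 1, 2, 5 and 7, came from wild type littermates. The dams of both groups ate food that held all-trans-retinoic acid at 0.1 mg/g between E7.5 and E8.5, so the comparison is of Raldh2-/- with wild type after an early rescue, with no unsupplemented group. The mouse strain is not given in the sources used here. Pools of embryos do not show how much single embryos vary, and fewer cells of a type and less RNA per cell cannot be told apart in them.

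Levels are log2 processed signals with the 75th percentile of their array subtracted, and a level of 0 lies at that percentile, and levels of different probes are not compared. A difference is the knockout mean minus the wild type mean on this log2 scale. Wild type pool 1 gave an array unlike the others. Of its spots 94.7% were well above background, against 53.3% to 63.2% elsewhere, and the median signal was 2023 there and 40.0 to 83.0 elsewhere. Results are therefore given on 8 arrays and on the 7 arrays without wild type pool 1. The slide carried the knockout arrays in row 1 and the wild type arrays in row 2, and an effect of the row cannot be told apart from one of the genotype. The labels do not say whether pools came from separate litters, and the p-values measure the spread between these pools. The targeted gene, Aldh1a2, had levels of 2.02, 2.01, 1.87 and 0.059 in knockout pools 1, 2, 3 and 7, against 1.92, 3.21, 2.98 and 3.65 in wild type pools 1, 2, 5 and 7. Every knockout pool lay below wild type pools 2, 5 and 7, and wild type pool 1 lay among the knockout pools. Whether this probe lies in the deleted part of the gene was not looked up here. All 20 of the outflow tract and heart muscle markers had a probe that passed the filter on dim signals in both fits.

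The sequences below belong to the genes on which the results turn most. They are the last 30 bases of the probes of Hoxb4 (chr11:96182915-96182944, mm9, plus strand) and Hoxc4 (chr15:102867243-102867272, mm9, plus strand), which had high differences between the groups. The capitals mark the hexamer AATAAA, the commonest polyadenylation signal of messenger RNAs. It stood in 7 of the 44 Hox probes, and in 10.1% of all 55681 probes.
Hoxb4 probe end: gacaacagaAATAAAtgtttggtttcttgt
Hoxc4 probe end: cccgtgatcaatAATAAAccagtggctgtg

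The array covered all 4 clusters, and detection followed paralogue number. Among paralogue groups 1 to 5, 9 of 15 genes were well above background on all 7 arrays other than wild type pool 1, and 2 were above it on none. Among groups 6 to 9, 1 of 12 genes, Hoxb6, was above background on all 7, and 6 were above it on none. Among groups 10 to 13, 0 of 12 genes were above background on all 7 or on at least 4, and 6 were above it on none. Over all clusters, 10 of 39 genes were above background on all 7 arrays and 14 on none. Of all probes on the array, 50.0% were above background on all 7 of these arrays, 59.0% on at least 4 and 27.3% on none.

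**Figure D1:**
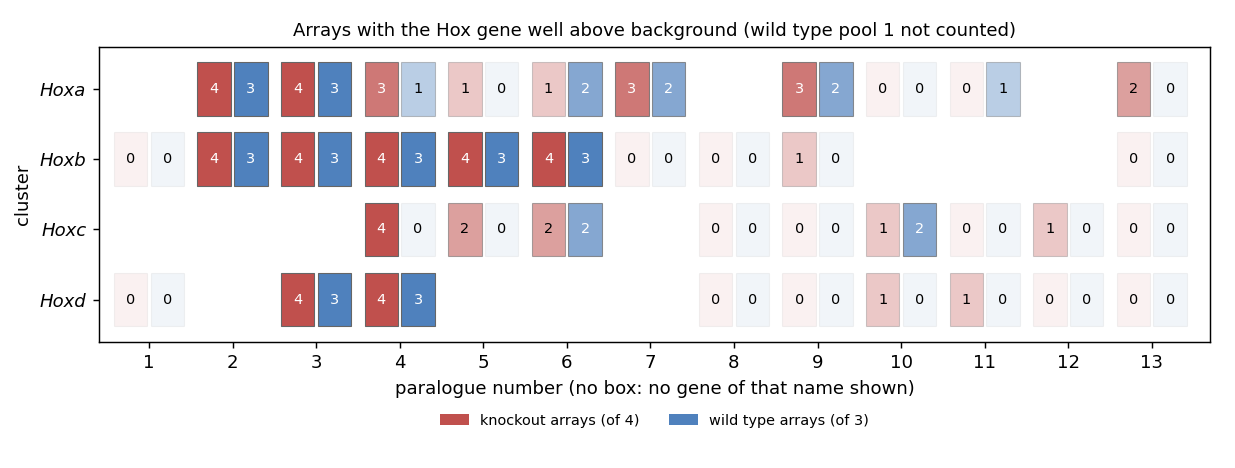
Number of arrays on which each Hox gene named in the text was well above background, by cluster (rows) and paralogue number (columns), with knockout arrays (of 4, left box, red) and wild type arrays (of 3, right box, blue; wild type pool 1 not counted). The best probe stands for a gene with several. Full boxes on both sides lie in paralogue groups 1 to 6, and Hoxc4 is at 4 knockout and 0 wild type arrays.

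The clusters differed in how far detection reached. In Hoxa, Hoxa2 and Hoxa3 were among those above background on all 7 arrays, and Hoxa7 and Hoxa9 on 5. In Hoxb, an unbroken run from Hoxb2 to Hoxb6 was above background on all 7, while Hoxb1 was above it on none. In Hoxd, this held for Hoxd3 and Hoxd4 alone, and Hoxd1 was above background on none. In Hoxc, whose first member is Hoxc4, 0 of 9 genes were above background on all 7. Hoxc4 itself was above it on 4 of 4 knockout arrays and on 0 of the 3 wild type arrays other than pool 1.

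By array, 16, 15, 18 and 22 of the 44 Hox probes were above background in knockout pools 1, 2, 3 and 7. The numbers were 41, 17, 18 and 11 in wild type pools 1, 2, 5 and 7. Knockout pool 7 had the most and wild type pool 7 the fewest among the 7 comparable arrays. Of the 16 Hox probes above background on none of these 7, 14 were above it in wild type pool 1. Of all probes dim on the 7, 87.5% were above background there, so a call in wild type pool 1 says little about a posterior Hox gene.

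The genes above background on 1 to 3 of the 7 arrays were Hoxa5, Hoxa6, Hoxa11, Hoxa13, Hoxb9, Hoxc5, Hoxc10, Hoxc12, Hoxd10 and Hoxd11. Hoxa13 and Hoxc5 were above background on 2 knockout arrays each, and Hoxa5, Hoxb9, Hoxc12, Hoxd10 and Hoxd11 on 1. None of these was above background in wild type pools 2, 5 and 7. In Hoxb9, Hoxc12 and Hoxd11 the call was that of knockout pool 7, which was also among the calls of Hoxa13 and Hoxc5. That pool had the largest share of spots above background of the 7 arrays, 63.2%, and wild type pool 7 the smallest, 53.3%. No share over all probes was computed for this pattern, which sets 4 knockout arrays against 3 wild type arrays. Hoxc5 had knockout levels of -3.57, -7.43, -5.65 and -3.01, against wild type levels of 0.93, -5.76, -6.18 and -4.83. The Hoxc5 ranges overlapped with or without wild type pool 1. Knockout pools 2 and 3 were not above background for Hoxc5, so no size is given for its difference. Hoxd10 reached -0.998 in knockout pool 3, against -7.72, -7.86 and -5.45 in knockout pools 1, 2 and 7, so a single pool accounted for its detection. In the reverse direction, Hoxa11 was above background in 1 wild type pool other than pool 1 and in 0 knockout pools. The genes above background on none of the 7 arrays were Hoxa10, Hoxb1, Hoxb7, Hoxb8, Hoxb13, Hoxc8, Hoxc9, Hoxc11, Hoxc13, Hoxd1, Hoxd8, Hoxd9, Hoxd12 and Hoxd13. For these 14 genes no difference between the groups could be measured.

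The comparison of knockout with wild type was made on probes detected on 3 or more arrays of either group. This kept 18 Hox probes of 17 genes on 8 arrays, and 15 probes of 14 genes without wild type pool 1, where Hoxa6, Hoxc6 and Hoxc10 dropped out. A probe can pass this filter through 1 group alone. On the 7 arrays Hoxa4, Hoxa7, Hoxa9 and Hoxc4 passed through the knockout arrays alone. With limma and Benjamini-Hochberg adjustment over all probes tested, 0 of 18 Hox probes passed an adjusted p of 0.05 on 8 arrays and 0 of 15 on 7. Over all probes, 0% passed in either fit (0 of 33404 and 0 of 32384). The smallest adjusted p over all probes was 0.691 and 0.255, and 593 and 3285 probes had an unadjusted p under 0.05. With arrays weighted by quality, 10 of 33404 probes (0.0299%) and 0 of 18 Hox probes passed. With these weights 7 of 18 Hox probes had an unadjusted limma p under 0.05 and a positive difference (6.56% of all probes). Hoxa4 and Hoxc4, kept only through the knockout arrays, are among these 7. With a negative difference 0 Hox probes had such a p (5.08%). The unweighted Hox adjusted p-values ran between 0.749 and 0.968 on 8 arrays and between 0.370 and 0.914 on 7. The differences below are therefore measured sizes that did not pass the test over all probes.

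By paralogue number, 11 of the 12 probes of groups 1 to 5 were higher in knockout pools on 8 arrays, with a median difference of 0.84. The 6 kept probes of groups 6 to 13 had negative values, with a median of -1.09. Hoxa6, Hoxc6 and Hoxc10 were kept only through the wild type arrays, pool 1 among them, and Hoxa4 and Hoxc4 only through the knockout arrays. For these 5 the filter favours the sign seen, which carries no weight. Without wild type pool 1, the anterior count was again 11 of 12, with a median of 1.14. The anterior counts and medians of both fits include Hoxa4 and Hoxc4, and were not computed without them. Of the 3 posterior probes left, Hoxb6 was at -0.54 ± 0.28, and Hoxa7 at -0.085 ± 0.18 and Hoxa9 at -0.12 ± 0.34 lay within their standard errors of 0. Over all Hox probes, 11 of 18 were positive with a median of 0.54 on 8 arrays, where 52.7% of all probes were positive with a median of 0.047. On 7 arrays, 11 of 15 were positive with a median of 0.86, where 59.1% of all probes were positive with a median of 0.052.

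On 8 arrays the knockout pools all lay above the wild type pools for 1 of 18 Hox probes, and 3.58% of all probes did so. They all lay below for 0 of 18, against 1.71% of all probes. On 7 arrays 2 of 15 lay above, among them Hoxc4, against 6.38% of all probes, and 0 of 15 lay below, against 4.81%. An unadjusted limma p under 0.05 with a positive difference was found for 5 of 18 Hox probes on 8 arrays (0.635% of all probes). On 7 arrays it was found for 6 of 15 (5.99%). Hoxc4 is in both of these counts, and Hoxa4 in that on 7 arrays. Both were kept only through the knockout arrays and carry no weight here, nor does Hoxc4 in the count without overlap. An unadjusted limma p under 0.05 with a negative difference was found for 0 Hox probes in both fits (1.14% and 4.15% of all probes). The counts without overlap are too small to set apart from their background.

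**Figure D2:**
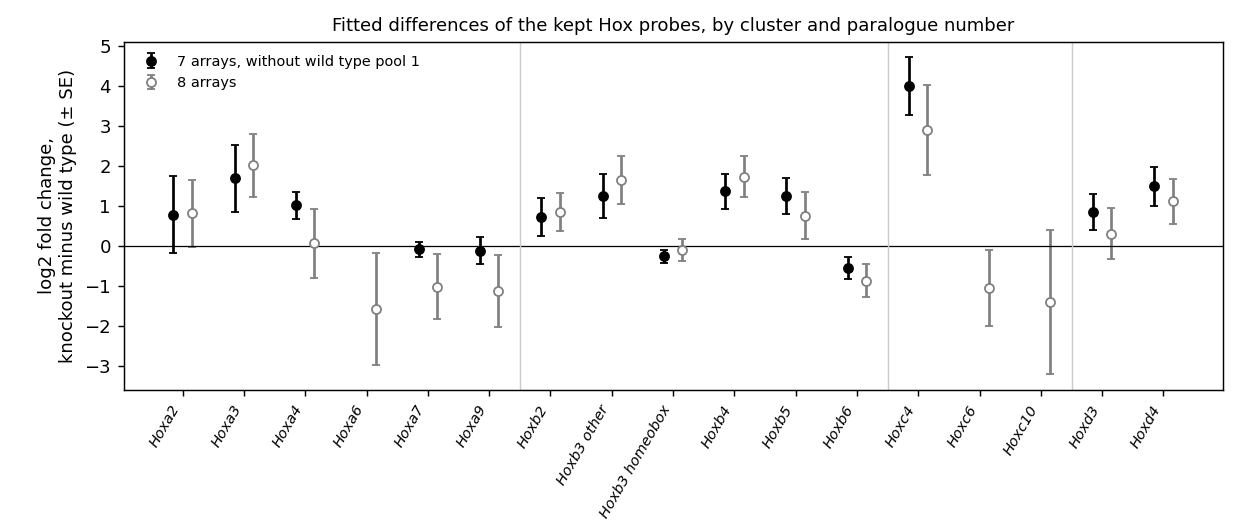
Fitted log2 differences, knockout minus wild type, of 17 of the 18 kept Hox probes in the order of cluster and paralogue number, on 7 arrays without wild type pool 1 (filled) and on 8 arrays (open); bars are standard errors. The probes of groups 1 to 5 lie above 0 except the homeobox probe of Hoxb3, the filled points of Hoxa7 and Hoxa9 lie within their standard errors of 0, and Hoxc4 has the highest value in both fits.

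Hoxc4, the most anterior gene of its cluster, had the highest difference of all Hox probes in both fits. Its levels were -1.36, -4.12, -2.85 and -1.26 in knockout pools 1, 2, 3 and 7, against -2.01, -5.66, -6.53 and -7.00 in wild type pools 1, 2, 5 and 7. The probe was above background in every knockout pool and, among wild type pools, in pool 1 alone. Wild type pools 2, 5 and 7 all lay below the lowest knockout pool, and wild type pool 1 lay among the knockout pools. The difference was 2.90 ± 1.12 (SE, limma adjusted p = 0.749) on 8 arrays and 4.00 ± 0.73 (limma adjusted p = 0.370) on 7. On 8 arrays it was 1.32 with normexp background correction and 1.96 without pool 7 of both groups. Normexp models each measured intensity as background noise plus signal. Since wild type pools 2, 5 and 7 were not well above background, the fitted size is no bound. The knockout mean of -2.40 was at least 7.90-fold higher than -5.38, the mean of the lowest levels called above background on these 3 arrays. The measured mean of these wild type pools was -6.40. Of 55663 probes with a value on all 7 arrays, 23 (0.0413%) were above background on all 4 knockout and none of these 3 wild type arrays. Hoxc4 was 1 of these 23. The pattern counted is the one that Hoxc4 itself showed, so this share describes how common it was and carries no weight.

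The other genes of paralogue group 4 were higher in knockout pools to differing degrees. Hoxb4 had levels of 1.07, 0.25, 0.60 and 1.90 in knockout pools 1, 2, 3 and 7, against -1.88, 0.25, -0.86 and -0.64 in wild type pools 1, 2, 5 and 7. Knockout pool 2 and wild type pool 2 were level to 2 decimals, and the other knockout pools lay above all wild type pools. The difference in Hoxb4 was 1.74 ± 0.52 (limma adjusted p = 0.749) on 8 arrays and 1.37 ± 0.43 (limma adjusted p = 0.402) on 7. Hoxd4 had levels of -0.83, -2.41, -1.12 and -0.74 in knockout pools, against -1.28, -1.98, -3.45 and -2.88 in wild type pools, in the same order of pools. Knockout pool 2 again lay inside the wild type range, and the other knockout pools lay above it. The difference in Hoxd4 was 1.12 ± 0.56 on 8 arrays and 1.49 ± 0.49 (limma adjusted p = 0.412) on 7. Hoxa4 was dim, with levels of -4.07, -5.18, -4.40 and -4.97 in knockout pools, against -1.87, -5.83, -5.09 and -6.10 in wild type pools. It was above background in knockout pools 1, 2 and 3 and, besides wild type pool 1, in wild type pool 5. Its difference was 0.073 ± 0.87 on 8 arrays and 1.02 ± 0.34 (limma adjusted p = 0.414) on 7, so the value of wild type pool 1 decided its size. On the arrays that kept that pool, Hoxa4 was negative without wild type pool 2, 5 or 7 (-0.30, -0.050 and -0.39).

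Retinoic acid receptors bind pairs of a 6-base half-site, and paralogue group 4 genes are textbook targets through enhancers near the clusters. The 250 bases before the start of Hoxc4 (chr15:103034145-103034394, plus strand), Hoxb4 (chr11:96318017-96318266, plus strand) and Hoxd4 (chr2:74721728-74721977, plus strand) are printed from RefSeq on GRCm38.p6, since these genes share a paralogue group and a direction. Capitals mark each half-site, searched on both strands as AGGTCA and the variant AGTTCA, and also in the forms GGGTCA and the related GGTTCA.
Hoxc4 promoter: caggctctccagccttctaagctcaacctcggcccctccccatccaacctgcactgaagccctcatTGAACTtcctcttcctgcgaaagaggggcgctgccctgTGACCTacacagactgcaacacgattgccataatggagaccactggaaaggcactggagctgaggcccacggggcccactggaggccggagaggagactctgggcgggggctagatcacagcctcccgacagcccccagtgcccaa
Hoxb4 promoter: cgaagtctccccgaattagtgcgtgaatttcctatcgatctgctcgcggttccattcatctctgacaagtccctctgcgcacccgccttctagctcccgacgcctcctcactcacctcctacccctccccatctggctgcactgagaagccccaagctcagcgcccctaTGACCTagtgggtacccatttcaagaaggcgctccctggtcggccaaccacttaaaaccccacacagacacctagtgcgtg
Hoxd4 promoter: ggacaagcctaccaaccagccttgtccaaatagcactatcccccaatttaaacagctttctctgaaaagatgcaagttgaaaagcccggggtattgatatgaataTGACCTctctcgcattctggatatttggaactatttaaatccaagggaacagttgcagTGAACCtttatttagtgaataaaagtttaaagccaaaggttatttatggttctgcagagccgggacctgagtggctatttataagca
Single half-sites are frequent: 38.6% of the 32851 promoters in the table held at least 1, as did 9 of the 24 Hox promoters, which belong to 22 Hox genes. Of 9 kept Hox genes with a promoter in the table, 5 held one, namely Hoxa7, Hoxb4, Hoxc4, Hoxd3 and Hoxd4. Direct repeats of the half-site with 1, 2 or 5 bases between, known as DR1, DR2 and DR5, stood in 0.164%, 0.174% and 0.0883% of all promoters and in 0 of the Hox promoters. These are letter matches in a short window, and the enhancers farther away were not searched.

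Of paralogue group 1, Hoxb1 and Hoxd1 were not kept. Hoxb2, a hindbrain gene of rhombomeres and the crest that leaves them, had levels of 0.28, 0.09, -0.17 and 1.58 in knockout pools, against -0.80, 0.49, -0.75 and -0.57 in wild type pools. Wild type pool 2 lay inside the knockout range, and the other wild type pools lay below it. The difference in Hoxb2 was 0.85 ± 0.47 on 8 arrays and 0.72 ± 0.48 (limma adjusted p = 0.619) on 7. Hoxa2, which sets the identity of the second pharyngeal arch, had levels of -1.69, -1.19, -2.32 and 0.17 in knockout pools, against -2.21, 0.02, -2.15 and -3.98 in wild type pools. The Hoxa2 ranges overlapped widely, and its difference of 0.82 ± 0.84 on 8 arrays and 0.78 ± 0.96 (limma adjusted p = 0.792) on 7 was no larger than its standard error. In both genes the highest wild type pool was pool 2 and the highest knockout pool was pool 7.

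The genes of paralogue group 3 act in the pharyngeal arches and their arteries. Hoxa3, which is needed for the third arch artery, thymus and parathyroid, had levels of 0.31, 0.28, 0.11 and 1.53 in knockout pools 1, 2, 3 and 7, against -2.42, 0.71, -1.03 and -3.12 in wild type pools 1, 2, 5 and 7. Wild type pool 2 stood above 3 of the 4 knockout pools, and the other wild type pools lay below all of them. The knockout mean was 0.56 ± 0.66 and the wild type mean -1.46 ± 1.69 (SD, n = 4 each). The difference in Hoxa3 was 2.02 ± 0.79 on 8 arrays and 1.70 ± 0.84 (limma adjusted p = 0.527) on 7. Hoxd3 had levels of -2.70, -3.82, -2.55 and -2.30 in knockout pools, against -1.51, -2.90, -4.33 and -3.88 in wild type pools. Its ranges overlapped through knockout pool 2 and wild type pools 1 and 2. The difference in Hoxd3 was 0.31 ± 0.63 on 8 arrays and 0.86 ± 0.45 (limma adjusted p = 0.546) on 7, and with wild type pool 1 kept it was negative without wild type pool 5 (-0.080).

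The 2 kept Hoxb3 probes disagreed. The probe in the homeobox, the conserved DNA-binding part, had nearly level signals of -0.08, 0.05, -0.29 and 0.00 in knockout pools, against -0.46, -0.05, 0.06 and 0.53 in wild type pools. The groups overlapped, with a difference of -0.10 ± 0.28 on 8 arrays and -0.26 ± 0.17 (limma adjusted p = 0.609) on 7. The other probe (chr11:96209002-96209061, mm9) had levels of -1.65, -1.78, -2.16 and -0.29 in knockout pools, against -4.29, -1.76, -2.94 and -3.47 in wild type pools. Its signal was not well above background in wild type pool 1, and wild type pool 2 lay inside the knockout range. The difference of this probe was 1.65 ± 0.60 on 8 arrays and 1.25 ± 0.54 (limma adjusted p = 0.495) on 7. The scanner files list for the homeobox probe, beside transcripts of Hoxb3, an accession that the reference names Hoxd3, so its signal is not assigned to Hoxb3 alone. A search of the Hox probes for 24 bases that encode 1 conserved stretch of the homeodomain found 2, the Hoxb3 homeobox probe and that of Hoxc11. Probes elsewhere in a homeobox were not searched for. The Hoxc11 probe was above background on 0 of the 7 arrays. The direction of Hoxb3 thus depends on the probe. The homeobox probe was also positive with quantile scaling (0.20), with median scaling (0.44) and without wild type pool 7 (0.070).

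Hoxb5, the kept member of paralogue group 5, had levels of -2.69, -4.35, -3.77 and -2.66 in knockout pools 1, 2, 3 and 7, against -2.66, -4.29, -5.05 and -4.53 in wild type pools 1, 2, 5 and 7. Wild type pool 1 lay level with the highest knockout pools, and knockout pool 2 lay just below wild type pool 2. The difference in Hoxb5 was 0.77 ± 0.60 on 8 arrays and 1.26 ± 0.45 (limma adjusted p = 0.435) on 7. Hoxa5 and Hoxc5 were above background in knockout pools alone among the 7 arrays, as given above, and did not pass the filter.

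**Figure D3:**
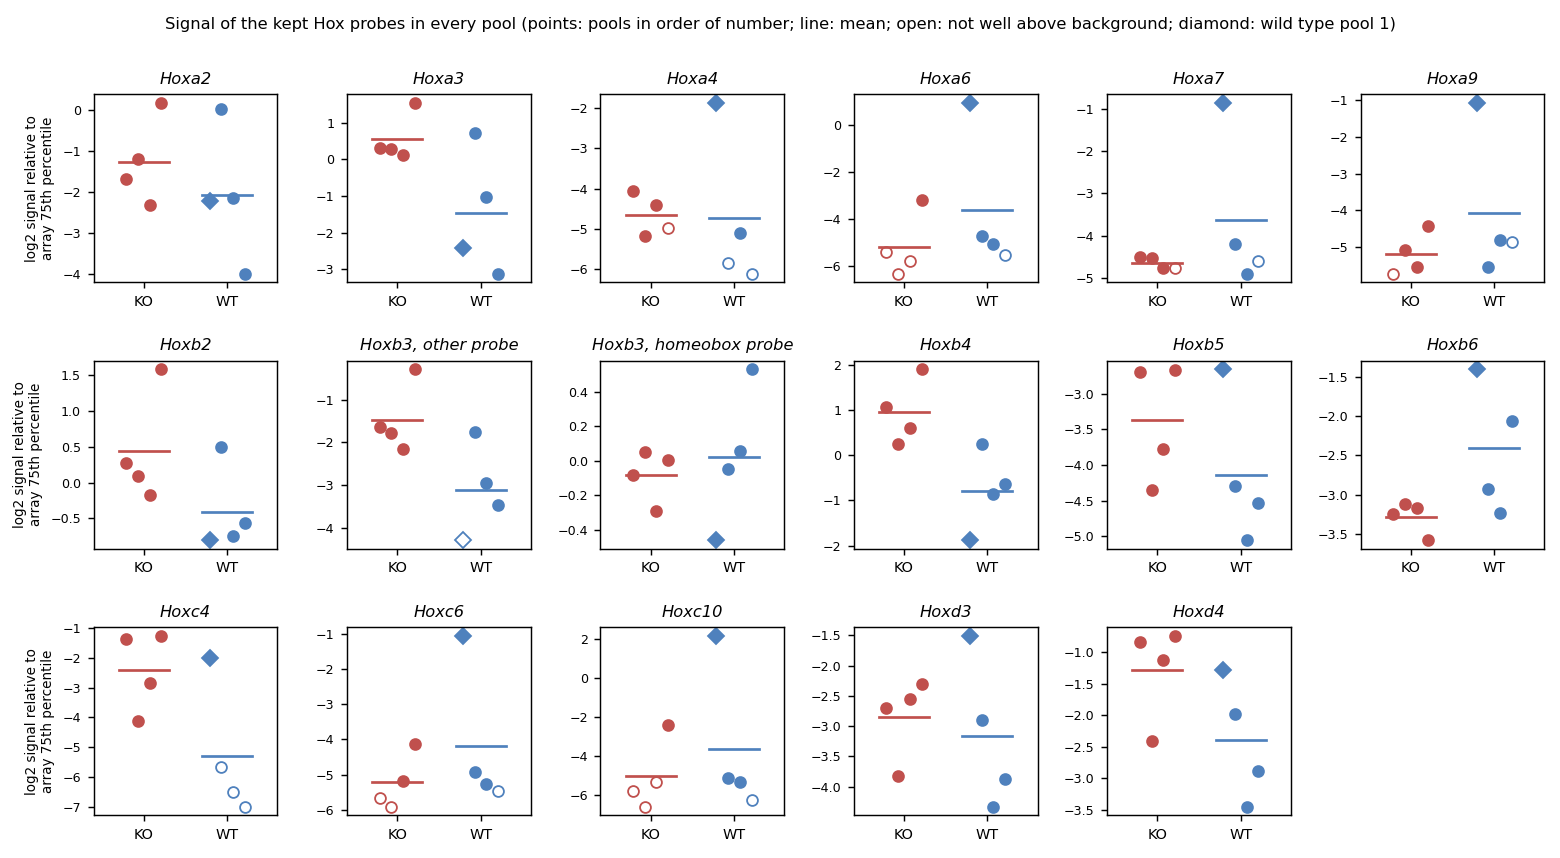
Level of each kept Hox probe in every pool (log2 signal minus the array's 75th percentile, vertical scales differ), with knockout pools 1, 2, 3 and 7 in red at the left and wild type pools 1, 2, 5 and 7 in blue at the right, in order of number. Lines are group means on 8 arrays, open symbols were not well above background, and the diamond is wild type pool 1. Of the 18 kept probes, 17 are drawn. In Hoxc4 the wild type points other than the diamond lie below all knockout points, and in Hoxa6, Hoxa7, Hoxa9, Hoxc6 and Hoxc10 the diamond stands far above all other points.

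The kept genes of paralogue groups 6 to 13, which pattern the trunk and tail, were dim. Hoxb6 was the exception, above background on every array, with levels of -3.24, -3.12, -3.17 and -3.57 in knockout pools, against -1.41, -2.92, -3.23 and -2.06 in wild type pools. Wild type pool 5 lay inside the knockout range, and the other wild type pools lay above it. The difference in Hoxb6 was -0.87 ± 0.42 on 8 arrays and -0.54 ± 0.28 (limma adjusted p = 0.543) on 7, and it was negative in all 30 alternative settings run. Hoxb5 and Hoxb6, neighbours in the cluster, thus had differences of opposite sign. Whether they differ from each other was not tested.

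Hoxa7 had levels of -4.51, -4.54, -4.77 and -4.78 in knockout pools, against -0.85, -4.19, -4.90 and -4.60 in wild type pools. Hoxa9 had levels of -5.71, -5.08, -5.54 and -4.43 in knockout pools, against -1.07, -5.54, -4.81 and -4.86 in wild type pools. For both genes wild type pool 1 was far above every other pool, and the remaining pools overlapped. The difference was -1.01 ± 0.82 in Hoxa7 and -1.12 ± 0.91 in Hoxa9 on 8 arrays. Without that pool it was -0.085 ± 0.18 in Hoxa7 and -0.12 ± 0.34 in Hoxa9 (limma adjusted p = 0.882 and 0.914). A further Hoxa9 probe was not kept.

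Hoxa6, Hoxc6 and Hoxc10 passed the filter only with wild type pool 1. Hoxa6 had levels of -5.41, -6.31, -5.79 and -3.18 in knockout pools, against 0.93, -4.74, -5.06 and -5.54 in wild type pools. Hoxc6 had levels of -5.66, -5.92, -5.19 and -4.12 in knockout pools, against -1.04, -4.92, -5.26 and -5.46 in wild type pools. Hoxc10 had levels of -5.82, -6.61, -5.33 and -2.44 in knockout pools, against 2.15, -5.15, -5.35 and -6.28 in wild type pools. In all 3 genes the highest value was that of wild type pool 1 and the next was that of knockout pool 7. Their 8-array differences were -1.57 ± 1.41, -1.05 ± 0.96 and -1.40 ± 1.81.

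The order of the pools was compared with that over all probes. Over the 15 Hox probes kept on 7 arrays, the highest level was that of knockout pool 7 in 11 probes, and this pool was the highest for 32.8% of all 32384 kept probes. The lowest level was that of wild type pool 5 in 6 Hox probes, against 10.1% of all probes, and of wild type pool 7 in 6, against 22.9% of all probes. Among wild type pools 2, 5 and 7, pool 2 was the highest in 11 of the 15, against 27.8% of all probes. Knockout pool 7 also had the largest share of spots above background among the 7 arrays, 63.2%, and the part of this in the Hox values was not tested. With each probe centred on its mean over the 7 arrays, the median of the 12 anterior probes was 0.50, -0.025, 0.19 and 1.35 in knockout pools 1, 2, 3 and 7. It was -0.072, -0.91 and -0.98 in wild type pools 2, 5 and 7. The 12 probes include those of Hoxa4 and Hoxc4, kept only through the knockout arrays. Knockout pool 2 and wild type pool 2 were thus nearly level, and the range over the knockout pools was as wide as the distance between the groups. With pool 7 of both groups left out, the median Hox difference was -0.035 with wild type pool 1 kept and 0.29 without it. For the 3 posterior probes the centred medians were -0.20, 0.062, -0.15 and -0.17 in knockout pools, against 0.12, -0.18 and 0.28 in wild type pools 2, 5 and 7.

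Markers of other tissues that a dissection could include varied between the pools too. Centred in the same way, the mean of the 15 kept pharyngeal endoderm, foregut and ectoderm markers was 0.61, 0.25, -1.29 and 1.62 in knockout pools, against 1.36, -0.94 and -1.61 in wild type pools 2, 5 and 7. Knockout pool 7 was the highest pool by this list and by the anterior Hox probes, and wild type pool 7 was the lowest by both. The lists differ in knockout pool 3, which was low for the endoderm list, and in wild type pool 2, which was high. The endoderm transcription factor Foxa1 had levels of 0.74, 0.18, -2.06 and 1.22 in knockout pools, against 1.35, -2.86 and -7.03 in wild type pools 2, 5 and 7. Its ranges overlapped. For 0 genes of the list every knockout pool lay above wild type pools 2, 5 and 7 (6.38% of all probes). For 1 gene, not Foxa1, every knockout pool lay below them (4.81%). The summed signal of the list, each gene as a multiple of the array's 75th percentile, ran between 37.1 and 61.9 in knockout pools and between 45.4 and 69.1 in these wild type pools. By this sum wild type pool 7, at 69.1, was the highest of the 7 pools, so the order of the pools differed between these measures of the list. All 16 markers were above background on at least 1 of the 7 arrays. On 7 arrays 11 of the 15 were positive, with a median difference of 0.73, and on 8 arrays 9 of 16, with a median of 0.063.

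The neural tube and neuron list had centred means of 0.26, -0.13, 0.24 and 0.62 in knockout pools, against 0.23, -0.57 and -0.65 in wild type pools 2, 5 and 7. Its summed signal ran between 7.30 and 9.69 in knockout pools and between 4.42 and 6.76 in these wild type pools, without overlap. Wild type pool 1, at 9.18, lay inside the knockout range. Of its 20 genes, 13 were kept on 7 arrays and 11 were positive, with a median of 0.42. On 8 arrays 7 of 14 were positive, with a median of -0.0998. The transcription factors Olig2, Neurog2, Neurod1, Neurod4, Lhx3 and Mnx1, which define neural tube progenitors and motor neurons, were above background on none of the 7 arrays. The neuronal genes Elavl3 and Stmn2 had differences of 0.58 ± 0.20 and 0.58 ± 0.22 on 7 arrays, where every knockout pool lay above wild type pools 2, 5 and 7 for both. On 8 arrays Elavl3 was at -0.38 ± 0.85 and Stmn2 at 0.96 ± 0.42.

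Of 16 neural crest and glia markers, 12 were kept on 7 arrays and 9 were positive, with a median of 0.22. Their summed signals were 38.6 to 41.6 in knockout pools against 32.4 to 41.1 in wild type pools 2, 5 and 7. The homeobox genes Dlx1 and Dlx2, which mark crest-derived arch mesenchyme, had the highest differences of this list among its named genes. They were 1.90 ± 0.38 and 1.78 ± 0.40 on 7 arrays (limma adjusted p = 0.370 and 0.373). On 8 arrays Dlx1 was at 0.94 ± 0.89 and Dlx2 at 2.08 ± 0.47. For Dlx1, wild type pool 1, at -0.92, lay above every knockout pool. The somite list had 9 kept genes with 7 positive and a median of 0.25, its summed signal ran between 10.02 and 14.2 in knockout pools and between 8.97 and 13.4 in wild type pools 2, 5 and 7, and Pax7 and Myf5 were above background on none. The epicardium, inflow and body wall list had 13 kept genes with 6 positive and a median of -0.18, and its summed signal ran between 11.6 and 19.5 in knockout pools and between 13.6 and 20.1 in wild type pools 2, 5 and 7. The outflow tract and heart muscle list had 9 of 20 positive with a median of -0.077, and its summed signal ran between 2043 and 2365 in knockout pools and between 2031 and 2880 in wild type pools 2, 5 and 7. On 8 arrays all 20 of this list were positive with a median of 0.45. The summed signal of the list was 530 in wild type pool 1, so that pool decided this count. Also on 8 arrays, 9 of 13 kept genes of the neural crest list were positive with a median of 0.35, 4 of 9 of the somite list with a median of -0.057, and 3 of 13 of the epicardium list with a median of -0.0999. The part of other tissues in the Hox differences was not tested.

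**Figure D4:**
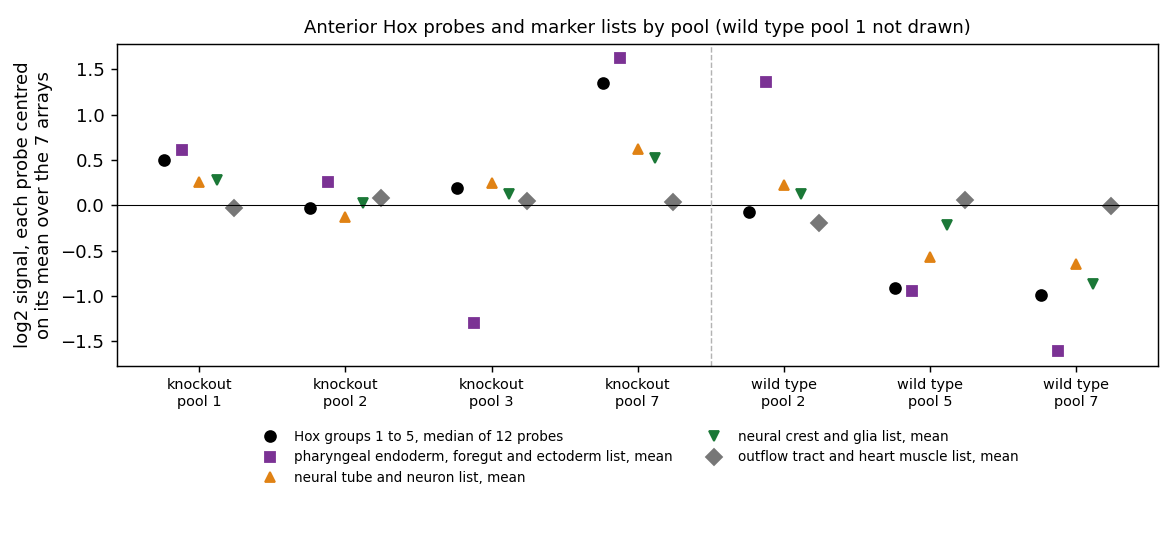
Median of the 12 probes of Hox paralogue groups 1 to 5 and mean of 4 marker lists in each of 7 pools (vertical axis: log2 signal with each probe centred on its mean over the 7 arrays), with the knockout pools at the left and the wild type pools at the right. The anterior Hox median is 1.35 in knockout pool 7 and -0.98 in wild type pool 7, the endoderm list spans 1.62 to -1.61 over the same pools, and the heart muscle list stays near 0.

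The genes that make, bind, degrade and sense retinoic acid were read beside the Hox genes. Of 21, 20 were kept, 0 passed the test, and 11 were positive on 7 arrays with a median difference of 0.15 (16 and 0.34 on 8). Rarb, a receptor whose gene is itself induced by retinoic acid, had levels of 1.87, 1.54, 1.88 and 2.00 in knockout pools 1, 2, 3 and 7, against -0.37, 0.62, 0.91 and 0.90 in wild type pools 1, 2, 5 and 7. Every knockout pool lay above every wild type pool. The difference in Rarb was 1.31 ± 0.34 (limma adjusted p = 0.749) on 8 arrays and 1.02 ± 0.14 (limma adjusted p = 0.255) on 7. Cyp26b1, which degrades retinoic acid, had a difference of 0.57 ± 0.16 on 7 arrays, and its knockout pools lay above wild type pools 2, 5 and 7. The Aldh1a2 difference was -1.45 ± 0.55 on 8 arrays and -1.79 ± 0.50 (limma adjusted p = 0.381) on 7.

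Hox proteins bind DNA with partners of the Pbx and Meis families. All 9 of these cofactor genes were kept, 0 passed the test, and on 7 arrays 5 were positive with a median difference of 0.081 (8 and 0.42 on 8 arrays). On 7 arrays Pknox1 had a difference of 0.28 ± 0.10, Meis1 0.27 ± 0.18 and Meis2 0.22 ± 0.15. On 8 arrays these were 0.72 ± 0.43, 0.82 ± 0.53 and 0.81 ± 0.55. Of 21 regulators of Hox clusters, among them Cdx factors and Polycomb and Trithorax proteins, 14 were kept and 0 passed. On 7 arrays 11 were positive with a median difference of 0.12 (8 and 0.33 on 8 arrays). Cdx2, Cdx4 and T, which act at the tail end of the embryo, were above background on none of the 7 arrays. The Polycomb genes Bmi1 and Ring1 had differences of 0.38 ± 0.14 and 0.47 ± 0.17 on 7 arrays. On 8 arrays Bmi1 was at 0.75 ± 0.39 and Ring1 at -0.15 ± 0.57. Egr2, the hindbrain factor that switches on Hoxa2 and Hoxb2, had a difference of -1.01 ± 0.43 on 7 arrays (limma adjusted p = 0.487), opposite in sign to both of these Hox genes. Of 16 transcripts of the clusters with other names, 2 had a probe and Hoxa11as, antisense to Hoxa11, was kept. Its levels of -4.44, -4.65, -5.78 and -3.69 in knockout pools overlapped with -0.43, -2.88, -4.02 and -3.91 in wild type pools, with a difference of -1.04 ± 0.50 on 7 arrays.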

How the data were processed

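The 8 pools shared 1 Agilent slide, hybridised in one colour (design 028005, probes placed on mm9). Per the labels, 50 ng of column-purified RNA with an integrity number over 8 was labelled with Cy3, without DNase. The values as deposited are intensity values on a linear scale: per the file headers, Agilent Feature Extraction 10.7.3.1 (protocol GE1_107_Sep09) subtracted background and detrended each array, and arrays were not scaled to each other. The authors' matrix held the same signals rounded to 3 significant digits. The number of arrays limits the precision.

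From these, log2 processed signals had the array's 75th percentile over 59305 spots subtracted, and spots of a probe were averaged, without those marked as outliers. A probe counts as well above background where at least 50% of its spots are (spot calls of the scanner software), and it was kept if so on at least 3 arrays of 1 group. Groups were compared at probe level, two-sided, with lmFit and eBayes of limma 3.58.1 (R 4.3.3) and Benjamini-Hochberg adjustment over all kept probes at 0.05. The fit was tested on simulated data with 200 changed probes. The members and lists were chosen with earlier results of these data known. Hox genes were named, with pool values where a probe was kept, and from each list the 3 genes of smallest p without wild type pool 1 could be named, besides Aldh1a2. The pool values of Hoxc5 and Hoxd10, the list genes above background on no array and the probes printed were chosen after values were seen. Alternatives were quantile, median and normexp scaling (offset 50), the matrix, the filter, probes per gene, robust fits, array weights, slide column or pool number as a block, and leaving out pools. Some members, list genes and sequences that the rule covers are not reported here. No protein sequences and no mm9 annotation were used here.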

Additional observations from a re-analysis of the deposited data

Results flagged for a closer look

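Of 36 groups of 4 pools, those of the 18 kept Hox probes in each genotype, 5 had a pool far from the other 3 by Dixon's criterion at the 95% level, where chance gives about 1 in 20 groups, or 1.8. In the knockout pools Hoxa3 was at 1.53 in pool 7, and the nearest other knockout pool was at 0.31. In the wild type pools it was pool 1 each time. Hoxa6 was at 0.93 there, with the nearest pool at -4.74, and Hoxa9 was at -1.07, with the nearest at -4.81. Hoxc6 was at -1.04, with the nearest at -4.92, and Hoxc10 was at 2.15, with the nearest at -5.15. The array of wild type pool 1 had raised signals on probes that were dim elsewhere, and without it Hoxa6, Hoxc6 and Hoxc10 did not pass the filter. Hoxa3 had a difference of 1.70 without knockout pool 7, and of 1.38 without wild type pool 1 as well.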

How the results depend on the processing

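In every alternative run, 0 Hox probes were called (the smallest limma adjusted p of a Hox probe was 0.190, Hoxc4 with array weights). Wherever they were kept, 8 probes had a positive difference. Among them were Hoxa3, Hoxb2, Hoxb4, Hoxb5, Hoxc4, Hoxd4 and the Hoxb3 probe other than the homeobox probe. Hoxa6, Hoxb6 and Hoxc6 were negative wherever they were kept. For Hoxa6, Hoxc4 and Hoxc6 the filter favours the sign seen, as given above. Of all probes, 10 were called with array weights (2 higher, 8 lower), 2 without wild type pool 1 and pool 7 of both groups, and, with wild type pool 1 left out, 1 without knockout pool 7 and 7 without wild type pool 5. The other alternatives called 0.

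The count of Hox probes with all knockout pools above all wild type pools was 1. It was 2 with quantile scaling, normexp and the deposited matrix, 3 with median scaling, and 2 without wild type pool 1 under quantile scaling or without pool 7 of both groups as well. It ran between 1 and 5 as each pool was left out, with 3 without knockout pool 2, 2 without wild type pool 1 and 5 without wild type pool 2. With wild type pool 1 out, it ran between 2 and 9 as each further pool was left out: 2 without knockout pool 1, 3 or 7 or wild type pool 7, 3 without wild type pool 5, 6 without knockout pool 2 and 9 without wild type pool 2. These last fits were chosen after seeing the data. Hoxc4, kept only through the knockout arrays, is in each of their counts and carries no weight there. Outside the fits whose shares of all probes are given above, no such share was computed, so the counts in this paragraph have no background. With fewer pools, ranges also stay apart more readily by chance, so the higher counts carry no weight. The count below was 0, and 1 with the replicate block, without wild type pool 5, without pool 7 of both groups, without that and wild type pool 1, and without wild type pool 1 and wild type pool 2 or 5.

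The median Hox difference of 0.54 was 1.08 with median scaling, where the median of all probes was 0.59 in place of 0.047. With quantile scaling the Hox median was 0.95 and that of all probes 0.22, and with normexp the Hox median was 0.22. The Hox median was -0.98 with no filter on dim probes, where that of all probes was -0.46, and -0.035 without pool 7 of both groups, or 0.29 without wild type pool 1 too. It ran between 0.13 and 0.86 as each pool was left out. With wild type pool 1 out it was 1.27 without knockout pool 2, 1.26 without knockout pool 3 and 1.26 without wild type pool 2.

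Some single genes changed sign. The Hoxb3 homeobox probe (-0.10) was at 0.20 with quantile scaling, 0.44 with median scaling, 0.070 without wild type pool 7 and 0.043 without pool 7 of both groups, and Hoxb3 as the mean of its probes was at 0.77. Hoxa4 (0.073) was at -0.22 with normexp, -0.14 with the replicate block, -0.30, -0.050 and -0.39 without wild type pool 2, 5 or 7, and -0.28 without pool 7 of both groups. Hoxd3 (0.31) was at -0.18 with the block, -0.080 without wild type pool 5 and -0.11 without pool 7 of both groups. Hoxa2 (0.82) was at -0.29 without pool 7 of both groups, -0.67 without wild type pool 1 too, and -0.19 without wild type pools 1 and 7. With wild type pool 1 out, Hoxa9 (-1.12) was at 0.055 without knockout pool 1 and 0.0090 without wild type pool 5, Hoxa7 (-1.01) at 0.10 without wild type pool 2 and Hoxc10 (-1.40) at 0.20 without wild type pool 7. Over the fits that left out 1 pool, with or without wild type pool 1, Hoxa2 reached 1.81, Hoxa4 1.31, Hoxa7 -1.44, Hoxa9 -1.61, Hoxc10 -2.27 and the Hoxb3 homeobox probe -0.37, and without pool 7 of both groups Hoxa9 was at -1.64 and Hoxc10 at -3.14. Hoxc4 (2.90) was at 1.32 with normexp and 1.96 without pool 7 of both groups. Beyond the arrays left out, the cause of these changes was not tested.

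Pools 1, 2 and 7 share numbers between groups. Their deviations from the group means correlated at -0.158, 0.311 and -0.384, so the numbers were not treated as pairs. With the replicate block on these pools 0 probes and 0 Hox probes were called, and the Hox median was 0.29. Signal over background limits the posterior Hox genes: 14 of 39 genes were above background on none of the 7 comparable arrays.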
